A study of Mus musculus with 2 samples.

Results

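The cells described here were candidate cranial mesoderm core cells of the mouse mandibular arch at embryonic day 9.5 (E9.5). In each pharyngeal arch, cranial mesoderm forms a central core that is surrounded by mesenchyme derived from the neural crest and covered by ectoderm and endoderm. The core gives rise to the jaw muscles and also contributes cells to the vessels of the arch. The T-box factor Tbx1 and the basic helix-loop-helix factors Msc (musculin) and Tcf21 (capsulin) are known regulators of this mesoderm, and Myf5 is the first of the myogenic determination factors to be expressed in it.

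The study made 2 single cell RNA-seq libraries from mouse mandibles of the genotype K14Cre;R26mT/mG, in which Cre driven by the keratin 14 promoter labels epithelial cells with GFP. The E9.5 library pooled mandibular arches of 8 embryos of the same litter, dissociated with TrypLE and not sorted, so it held epithelium, mesenchyme and all other arch cells. The E12.0 library pooled 6 embryos, and its peeled epithelia were sorted for GFP. With 1 library per stage there was no replicate, so no difference between groups of cells was tested, and all intervals given are exact 95% intervals that cover counting error only.

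The E9.5 library held 14293 cell barcodes and 208540526 unique molecular identifiers (UMIs, each counting 1 captured RNA molecule). Cells with 200 to 5500 genes and at most 10% mitochondrial UMIs were kept, which left 12744. A kept cell was called a core cell when its UMIs of Tbx1, Msc and Tcf21 summed to at least 3 and it had no UMI of Epcam (epithelium), Cdh5 (endothelium) or Sox10 (neural crest and glia). This gave 663 core cells, 5.20% of the kept E9.5 cells (interval 4.82 to 5.60%) and 663 of the 24099 kept cells of both stages. The core cells were compared with 5015 mesenchyme cells, which had at least 2 UMIs of the mesenchyme factors Twist1 and Prrx1 and none of Tbx1, Msc, Tcf21, Epcam or Cdh5. Median depth was 12855 UMIs and 3800 genes per core cell and 15154 UMIs and 3952 genes per mesenchyme cell. Endothelial cells (237 cells with at least 2 Cdh5 UMIs and no Epcam) and epithelial cells (3528 cells with at least 2 Epcam UMIs and no Cdh5) served as further points of reference, with median depths of 14499 and 13176 UMIs.

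The same rule found 3 of 11355 kept cells in the sorted E12.0 epithelium (0.0264%, interval 0.00545 to 0.0772%). Those 3 cells held 9 UMIs of Tbx1, 0 of Msc, 0 of Tcf21 and 22 of the epithelial keratin gene Krt14, so the E12.0 library held no cell with Msc or Tcf21 that met the rule. The libraries shared 51 cell barcodes, of which 2 belonged to core cells. All further values are from E9.5.

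The core cells were chosen by their UMIs of Tbx1, Msc and Tcf21, so the levels of these genes are given as a description. Tbx1 was read at 311 CPM (UMIs of the gene per 1000000 UMIs, summed over all core cells; interval 300 to 323), Tcf21 at 128 CPM and Msc at 77.8 CPM. A UMI of Tbx1 was found in 96.5% of core cells, of Tcf21 in 79.6% and of Msc in 56.4%. All 3 genes were detected in 297 core cells (44.8%), Tbx1 and Tcf21 without Msc in 210, Tbx1 and Msc without Tcf21 in 65, and Tbx1 alone in 68 (10.3%). The remaining 23 cells had no Tbx1 UMI. The fourth marker, Myf5, was outside the rule. It was detected in 59 core cells (8.90%, interval 6.84 to 11.3%), against 0.279% of mesenchyme cells, 0.340% of epithelial cells and 0.422% of endothelial cells. Thinned to 6000 UMIs, the shares were 3.97% of core and 0.12% of mesenchyme cells. Of the 111 kept cells with a Myf5 UMI, 59 were core cells and 9 had a rule sum of 1 or 2, 12 had a rule sum of 0, and 31 were left out for a UMI of Epcam, Cdh5 or Sox10. The marker that played no part in the choice was thus detected most often in the chosen cells, though at most 3 UMIs were read in any core cell.

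Cells just outside the threshold also held factors that the rule did not use. The 120 cells with a rule sum of 2 had 52.2 CPM of Lhx2 and 90.8 CPM of Isl1. The 105 cells with a sum of 3 had 85.2 and 95.1 CPM. The 4903 cells with a sum of 0 had 2.15 and 16.9 CPM of these genes, and the 237 cells with a sum of 8 or more had 115 and 74.9 CPM. Twist1, a mesenchyme gene of the comparison rule, was read at 664 CPM at a sum of 0, 250 CPM at 2, 205 CPM at 3 and 93.2 CPM at 8 or more. Kdr, the VEGF receptor of endothelial precursors, followed neither course, with 6.22 CPM at a sum of 0, 98.3 CPM at 2 and 37.3 CPM at 8 or more. Median depth ran from 9831 UMIs at a sum of 2 to 15446 UMIs at 8 or more, and its part in these values was not tested.

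**Figure D1:**
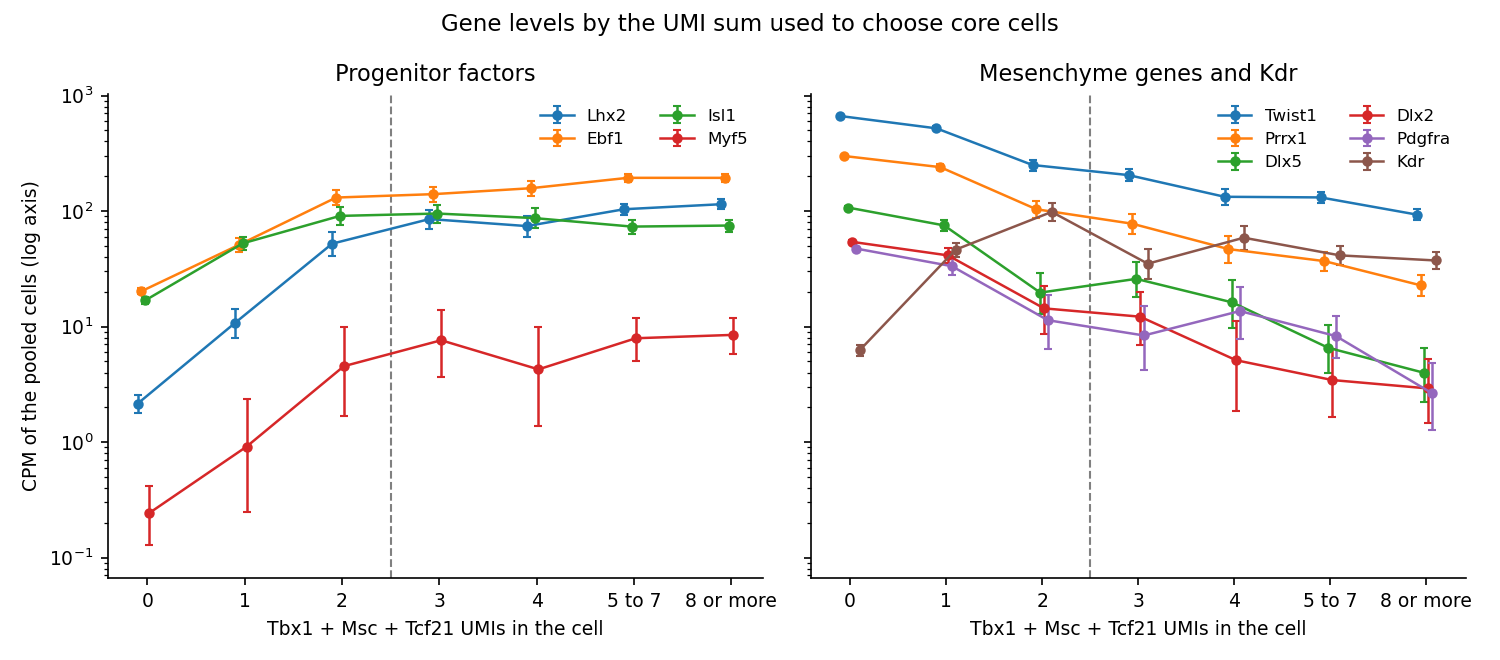
Levels of progenitor factors (left) and of mesenchyme genes and Kdr (right) in CPM of pooled cells on a log axis, against the sum of Tbx1, Msc and Tcf21 UMIs in the cell; bars are exact 95% Poisson intervals and the dashed line is the threshold of 3. Lhx2 runs from 2.15 CPM at a sum of 0 to 115 CPM at 8 or more, Twist1 from 664 to 93.2 CPM, and Kdr is highest at a sum of 2 (98.3 CPM).

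Some core cells also gave UMIs of genes of neighbouring types. Twist1 and Prrx1 together stood at 164 CPM in core cells and 1033 CPM in mesenchyme. They stood at 115 CPM in epithelial and 77.6 CPM in endothelial cells, and the share of background RNA was not tested. Of the 663 core cells, 276 (41.6%) held at least 2 UMIs of Twist1 and Prrx1 and so met the mesenchyme threshold as well, and 23 of these were called doublets by Scrublet. Among all core cells 24 (3.62%) were called doublets, against 41 mesenchyme cells (0.818%). None were removed. Of 10 epithelial genes, summed to 65.0 CPM in core cells, 90.3 CPM in mesenchyme and 1677 CPM in epithelial cells, the most abundant in core cells was Krt18 (28.5 CPM), and Krt5 was at 0. Macrophage genes summed to 0.218 CPM and 5 neural crest and glia genes to 10.3 CPM, against 63.5 CPM in mesenchyme, where 1371 of the 5015 cells held the Sox10 UMIs that the rule barred from core cells. The 8 endoderm genes summed to 21.7 CPM, of which Hhex, a gene of endoderm and of early vessels, gave 20.4 CPM, and Foxa2, the defining endoderm factor, 0.218 CPM.

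Across all genes, a gene was counted as higher or lower in core cells when its level was at least 1.3 times that of the other group, after adding 5 CPM to each, and at least 15% of cells of the higher group held a UMI of it. Of 7523 genes detected in at least 15% of either group, 1130 were higher (15%) and 505 lower (6.71%). At a ratio of 2, 315 were higher (4.19%) and 91 lower (1.21%). The median log2 ratio over the 7523 genes was 0.06. In this and all later comparisons, a gene that reached 15% of cells in a single group could be counted only as higher in that group. The genes of the rule are left out of these counts, which are counts by size and not of significant genes.

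Among transcription factors of branchiomeric muscle progenitors, 10 of the 11 that passed the detection cutoff were higher in core cells and none was lower, out of 13 listed. Their median log2 ratio was 3.18. Of all genes tested, 15% were higher and 6.71% lower. Among the factors, Lhx2, Isl1, Six2 and Eya4 were in under 15% of mesenchyme cells, so they could only be counted as higher. Lhx2, a LIM homeodomain factor of the pharyngeal muscle programme (ENSMUSG00000000247, GRCm38 chr2:38339281-38369733, protein coding), was read at 102 CPM in core cells (interval 95.3 to 108) and 1.56 CPM in mesenchyme (1.29 to 1.88), a log2 ratio of 6.03 (5.74 to 6.32). The intervals of the groups did not overlap. After thinning every cell to 6000 UMIs, Lhx2 was detected in 38.3% of core and 1.13% of mesenchyme cells, where the unthinned shares were 56.6% and 2.13%.

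Isl1, the LIM homeodomain factor shared with the second heart field (ENSMUSG00000042258, chr13:116298281-116309689), stood at 78.8 CPM against 8.70 CPM. Ebf1, an early B-cell factor family member (ENSMUSG00000057098, chr11:44617317-45008091), stood at 181 CPM against 20.0 CPM, and its relative Ebf2 at 94.9 CPM against 36.0 CPM. The third member, Ebf3, did not meet the size rule (26.5 against 24.9 CPM). Six2 and Six4, homeodomain factors, and the Eya coactivators act together upstream of the myogenic factors. Six2 was at 16.2 CPM against 0.816 CPM, Six4 at 51.5 against 31.1 CPM, Eya1 at 37.5 against 11.9 CPM and Eya4 at 23.1 against 1.53 CPM. Eya2 (5.89 against 0.636 CPM) was below the detection cutoff. Several of these factors were also read in epithelial cells, where Isl1 stood at 77.6 CPM and Six4 at 48.5 CPM. Lhx2 stood at 2.17 CPM and Ebf1 at 14.1 CPM there. Against all other kept cells the log2 ratio of Isl1 was 1.075 in place of 3.18 and that of Lhx2 4.76 in place of 6.03.

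**Figure D2:**
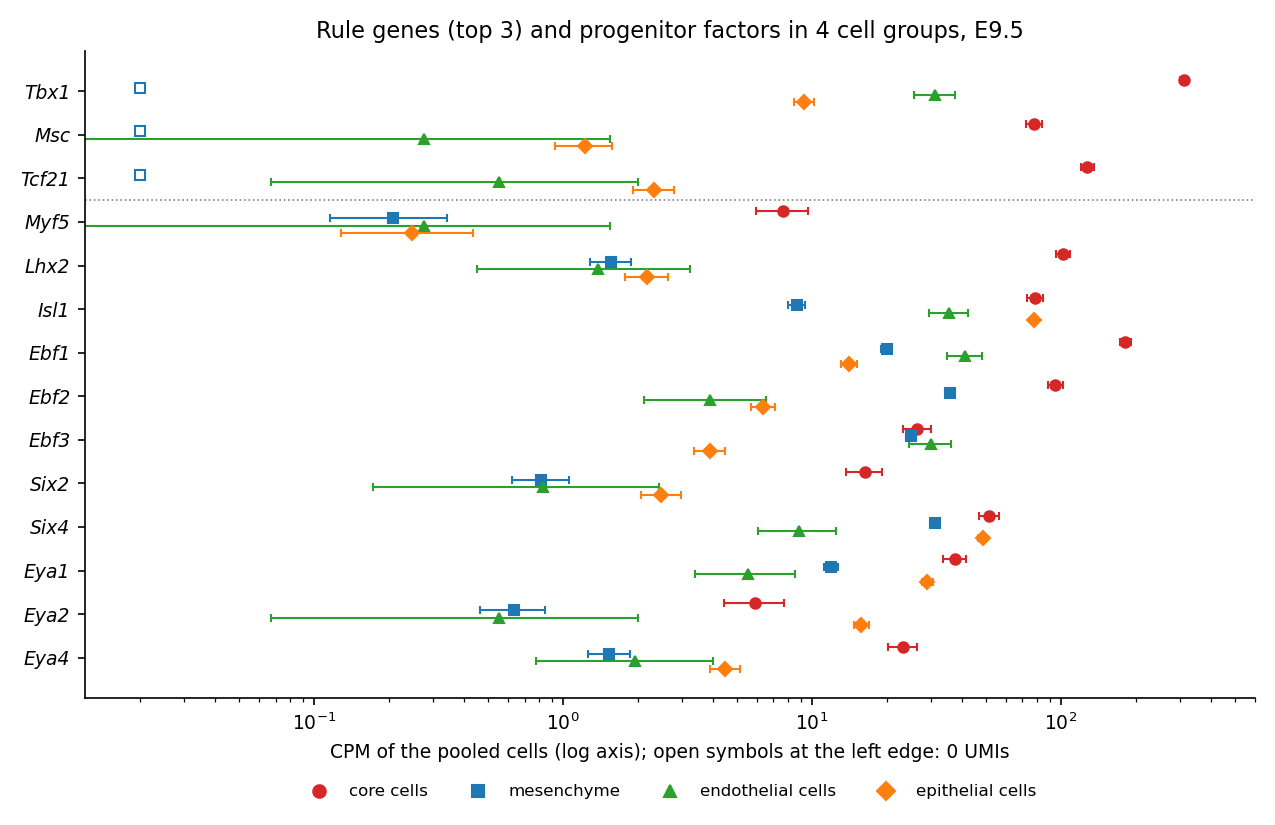
Levels of the rule genes (above the dotted line) and of 11 progenitor factors in core cells, mesenchyme, endothelial and epithelial cells, in CPM of pooled cells on a log axis with exact 95% Poisson intervals; open symbols stand for 0 UMIs, which the rule fixes in mesenchyme. Lhx2 and Ebf1 lie above all 3 other groups, Isl1 lies close to its epithelial value, and Ebf3 lies near the mesenchyme value.

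Promoter sequences were looked at for the rule genes and the progenitor factors, whether or not they met the size rule. RefSeq promoters on GRCm38.p6 were found for 10 of the 16 rule genes and progenitor factors, with 15 start sites in all. In the 250 bases before the start, the E-box letters CAGCTG (palindromic, so the same on both strands) were found in 1 of the 15, against 13.0% of all 32851 promoters. The T-box letters GGTGTGA, searched on both strands, were also found in 1, against 3.33% of all promoters. The matches lay in different promoters. The promoters with a match are given 5′ to 3′ on the strand of the gene with the match in capitals. They are the Isl1 promoter (chr13:116309689-116309938, minus strand, CAGCTG) and the downstream of 2 Ebf1 promoters (chr11:44619978-44620227, plus strand, GGTGTGA read on the other strand).
Isl1: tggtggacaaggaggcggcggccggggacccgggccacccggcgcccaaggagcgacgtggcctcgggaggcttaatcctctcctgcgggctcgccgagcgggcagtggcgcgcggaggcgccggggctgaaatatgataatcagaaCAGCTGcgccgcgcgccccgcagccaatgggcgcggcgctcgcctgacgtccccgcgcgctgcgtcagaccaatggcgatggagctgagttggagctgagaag
Ebf1: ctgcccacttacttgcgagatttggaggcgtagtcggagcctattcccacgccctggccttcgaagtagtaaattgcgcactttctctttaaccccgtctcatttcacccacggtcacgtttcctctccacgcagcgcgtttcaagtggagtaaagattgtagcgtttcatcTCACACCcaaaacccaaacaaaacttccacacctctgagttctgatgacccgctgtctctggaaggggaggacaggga
These matches describe letters in a window and do not identify a binding site.

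Few transcripts of later steps of muscle formation were read. Myf5 stood at 7.63 CPM (interval 5.95 to 9.65) against 0.207 CPM (0.116 to 0.342), a log2 ratio of 5.20 (4.38 to 6.11), although it was in too few cells to enter the counts. The myogenic determination factors Myod1 and Myf6 gave 10 and 6 UMIs in all core cells together. Myod1 was detected in 9 core cells (1.36%, interval 0.623 to 2.56%), of which 2 also held Myf5, and in 0.0199% of mesenchyme cells. Myog, which acts at differentiation, and Mymk, needed for muscle cell fusion, gave 0 UMIs, which allows up to 0.327 CPM each. Of 19 genes of muscle differentiation, 4 passed the detection cutoff. Des (desmin, 46.2 against 17.7 CPM), Rbm24 (an RNA-binding protein of muscle, 22.1 against 3.11 CPM) and Tnnt1 (slow troponin T, 16.5 against 10.9 CPM) were higher. The myocyte enhancer factor Mef2c was lower (28.5 against 189 CPM).

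Trunk somite and limb muscle genes were mostly rare in core cells. None of the 8 genes listed for them passed the detection cutoff, with Pax3 at 0.545 CPM and Pax7 and Lbx1 at 0. Uncx, a somite gene, was the most abundant at 10.7 CPM against 0.124 CPM in mesenchyme. Of 12 Hox genes, 8 gave 0 UMIs in core cells and the highest, Hoxb2, stood at 0.872 CPM. Of 15 heart field genes, Nkx2-5 (18.0 against 2.96 CPM) and Fgf10 (47.2 against 1.45 CPM) were higher, Hopx was lower (17.2 against 58.6 CPM) and 12 were below the cutoff, among them Gata4 at 0.109 CPM and Tbx5 at 0. Of 9 cardiomyocyte genes only the light chain gene Myl4 passed, at 50.1 against 3.91 CPM, while the sarcomere genes Tnnt2 and Myh7 stood at 0.872 and 0.545 CPM.

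Genes of the neural crest mesenchyme were lower in core cells in 16 of 18 cases that passed the cutoff, of 25 listed, with a median log2 ratio of -2.65. Of all genes tested, 6.71% were lower and 15% higher. The Dlx homeodomain factors, which pattern the arch from top to bottom, led the list. Dlx5 stood at 9.49 CPM against 98.0 CPM, a log2 ratio of -3.37 (-3.69 to -3.06) that was -4.31 without the called doublets and -2.94 with no upper limit on genes per cell, Dlx2 at 4.69 against 60.1 CPM and Dlx1 at 3.82 against 50.5 CPM. Tfap2b (5.89 against 69.4 CPM), the platelet-derived growth factor receptor gene Pdgfra (6.65 against 51.4 CPM) and the nuclear receptor gene Nr2f1 (51.1 against 282 CPM) were lower too. Without core cells meeting the mesenchyme threshold the log2 ratio of Tfap2b was -5.21 in place of -3.56 and that of Pdgfra -4.48 in place of -2.95. Prrx2 remained the most abundant of the list in core cells (168 against 338 CPM). Twist2 was the exception that was higher (13.1 against 3.50 CPM), and Nr2f2 met neither direction (138 against 110 CPM). The comparison group was chosen for Twist1 and Prrx1, so the choice of the groups and these levels cannot be told apart.

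Outside the lists, the genes with the largest ratios included secreted factors, matrix genes and further homeobox genes. Pgf (placental growth factor, a ligand of the VEGF family) was read at 147 CPM against 2.24 CPM and in 68.3% against 2.85% of cells. Tlx1 and Hlx, homeobox genes, stood at 164 against 4.53 CPM and 65.9 against 0.442 CPM (for Hlx a log2 ratio of 7.22, and 8.11 with thinned cells), and the forkhead gene Foxl2 at 62.3 against 1.04 CPM. The neuregulin gene Nrg1, whose product binds ErbB receptors, stood at 68.5 against 0.553 CPM, a log2 ratio of 6.95 (6.49 to 7.45) that was 6.24 with cells weighted equally. Igfbp5, which binds insulin-like growth factors, was abundant at 443 against 28.4 CPM, a log2 ratio of 3.96 that was 0.18 against all other kept cells. Edn1 (endothelin 1, the ligand that acts through Ednra on arch crest cells) stood at 73.7 against 2.77 CPM, while its receptor gene Ednra was lower (7.42 against 16.0 CPM). The collagen genes Col13a1 (81.7 against 1.63 CPM) and Col25a1 (55.4 against 1.62 CPM) were also among the first 15, as were Smoc1, Kazald1, Hlf and Gm266. Against all other kept cells the log2 ratios of Edn1 and Tlx1 were 1.33 and 2.503 in place of 4.74 and 5.18, and that of Pgf was 4.25 in place of 6.04. Among the first 15 lower genes that were in no list were Plcg2 (3.49 against 44.3 CPM), Foxd2 (4.58 against 40.5 CPM) and the axon growth gene Gap43 (24.4 against 131 CPM). Without core cells meeting the mesenchyme threshold the log2 ratio of Plcg2 was -5.14 in place of -3.67 and that of Foxd2 -4.43 in place of -3.15.

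**Figure D3:**
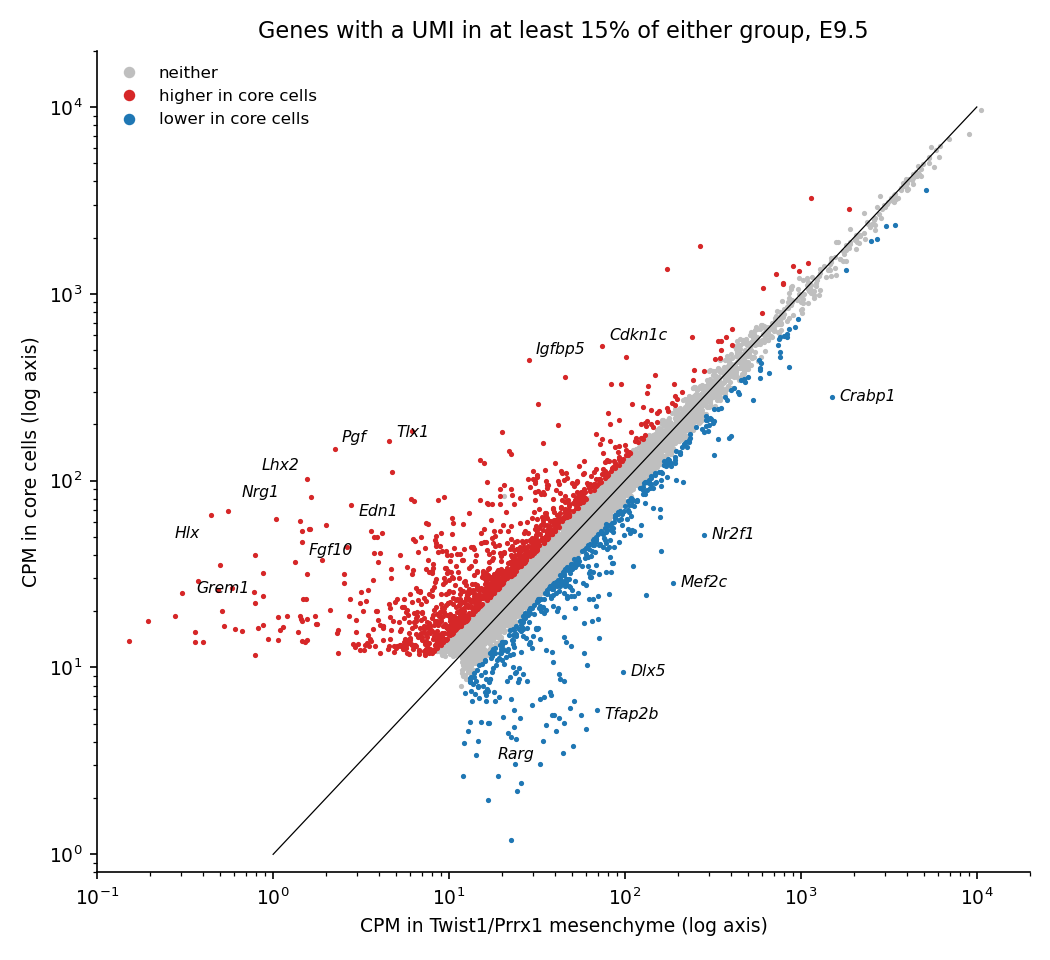
CPM in core cells against CPM in mesenchyme on log axes for the genes with a UMI in at least 15% of either group, with genes counted as higher in red and as lower in blue and the diagonal as the line of equal level. Higher genes (1130) outnumber lower genes (505), with Pgf and Lhx2 far above the line and Dlx5 and Tfap2b far below it.

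Most FGF pathway genes past the cutoff were higher in core cells, where 15% of all genes tested were. Of 12 FGF pathway genes past the cutoff, of 21 listed, 10 were higher and none was lower, with a median log2 ratio of 0.90. Fgf10 was at 47.2 CPM, with a log2 ratio of 5.02 (4.71 to 5.35). It was detected in 40.1% of core and 1.87% of mesenchyme cells, so it could only be counted as higher. Fgf8 stood at 36.6 against 3.97 CPM, and at 117 CPM in epithelial cells, which are its textbook source in the arch. The receptors Fgfr1 (78.8 against 47.3 CPM) and Fgfr2 (17.8 against 8.49 CPM) and the response genes Etv4 (22.4 against 4.95 CPM), Etv5 (36.6 against 17.0 CPM) and Dusp6 (99.2 against 41.5 CPM) were higher. Fgf8, Fgfr2 and Etv4 were also in under 15% of mesenchyme cells, so they could not be counted as lower. The feedback inhibitors Spry1 (11.9 against 14.8 CPM) and Spry4 (13.3 against 14.1 CPM) did not meet the rule.

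Among BMP pathway genes, 6 of 11 past the cutoff were higher and 2 lower, of 21 listed. Of all genes tested, 15% were higher and 6.71% lower. The higher genes included 3 secreted antagonists, Grem1 (24.97 against 0.304 CPM), Fst (58.1 against 2.00 CPM) and Chrdl1 (18.6 against 1.06 CPM), and the ligand genes Bmp7 (25.3 against 3.15 CPM) and Bmp5 (12.7 against 5.02 CPM). These antagonist and ligand genes were in under 15% of mesenchyme cells, so they could only be counted as higher. The Id genes are direct targets of BMP signals, and they were split. Id2 was higher (586 against 240 CPM), and Id1 (375 against 657 CPM) and Id3 (570 against 747 CPM) were lower.

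Retinoic acid genes were split as well, with 4 of 8 higher and 3 lower, of 15 listed, where 15% and 6.71% of all genes tested were. Higher were the degrading enzymes Cyp26a1 (32.0 against 0.871 CPM) and Cyp26c1 (15.5 against 0.359 CPM), the retinol uptake receptor Stra6 (16.1 against 0.608 CPM) and the binding protein Crabp2 (118 against 85.7 CPM). Cyp26a1, Cyp26c1 and Stra6 were in under 15% of mesenchyme cells, so they could only be counted as higher. The lower genes included the binding protein gene Crabp1 (282 against 1510 CPM) and the receptor Rarg (4.04 against 34.4 CPM). Rarg was in under 15% of core cells, so it could only be counted as lower. The main synthesising enzyme of the early embryo, Aldh1a2, gave 0 UMIs in core cells.

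WNT pathway genes were higher in 9 of 16 cases and lower in 3, of 29 listed. Of all genes tested, 15% were higher and 6.71% lower, the shares to set beside each count in this paragraph. The receptor Fzd2 (320 against 134 CPM) and the nuclear effectors Lef1 (79.0 against 31.0 CPM) and Tcf7 (74.6 against 17.6 CPM) were higher, as were the feedback targets Nkd1 (28.8 against 9.44 CPM) and Axin2 (16.1 against 10.2 CPM). The ligand Wnt5a (45.9 against 71.9 CPM) and the secreted inhibitor Sfrp1 (55.2 against 104 CPM) were lower. In the hedgehog pathway 5 of 7 were higher and none lower, of 11 listed, including the effectors Gli3 (91.1 against 36.0 CPM) and Gli2 (16.4 against 4.20 CPM), the receptor and target Ptch1 (76.8 against 52.2 CPM) and the co-receptors Boc and Cdon. Gli2 too was in under 15% of mesenchyme cells. In the Notch pathway 7 of 8 were higher, of 19 listed, among them Hey1 (32.6 against 11.3 CPM), Notch3 (27.8 against 12.6 CPM) and the imprinted, Notch-related gene Dlk1 (75.0 against 23.4 CPM), while Hes1 was not (53.0 against 45.2 CPM). Epithelial cells had 207 CPM of Dlk1. Summed over each list, Notch genes stood at 293 CPM in core, 530 in endothelial and 465 in epithelial cells. The sums in the same order were 1013, 325 and 1033 CPM for WNT genes and 407, 123 and 458 CPM for hedgehog genes.

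Guidance and matrix genes gave further differences, where 15% of all genes tested were higher and 6.71% lower than in mesenchyme. Of 14 chemokine, migration and guidance genes past the cutoff, of 24 listed, 10 were higher and 1 lower. The semaphorin and VEGF co-receptor Nrp2 stood at 256 CPM against 32.2 CPM, the chemokine Cxcl12 at 42.2 against 9.66 CPM, the ephrin receptor Epha4 at 44.7 against 8.42 CPM and the repellent Slit2 at 32.4 against 7.65 CPM. Of 21 adhesion and matrix genes, of 29 listed, 10 were higher and 4 lower. Fibronectin (Fn1, 328 against 82.8 CPM), Sparc (159 against 34.2 CPM), versican (Vcan, 249 against 126 CPM) and tenascin C (Tnc, 14.3 against 0.940 CPM) were higher, and the cadherin gene Cdh6 was lower (32.5 against 83.4 CPM).

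Genes of the cell cycle were at similar levels in both groups, apart from 2. Of 14 S phase genes 1 was higher, Gins2 (141 against 75.2 CPM), and of 14 mitosis genes none met the rule in either direction. The medians of the log2 ratios were 0.01 and -0.07. Mki67 stood at 273 against 241 CPM and Pcna at 43.5 against 44.3 CPM. Of the cyclin-dependent kinase inhibitors and D cyclins, Cdkn1c (p57), an imprinted inhibitor, was higher at 525 CPM against 74.1 CPM, a log2 ratio of 2.82 (2.77 to 2.88), in 94.3% against 48.1% of cells. Cdkn1b (16.7 against 13.0 CPM) did not meet the rule, and Cdkn1a (5.02 against 4.09 CPM) was below the detection cutoff. Endothelial cells had 509 CPM of Cdkn1c, close to the core value. Of 6 housekeeping genes, Hprt was lower and the others met neither direction.

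**Figure D4:**
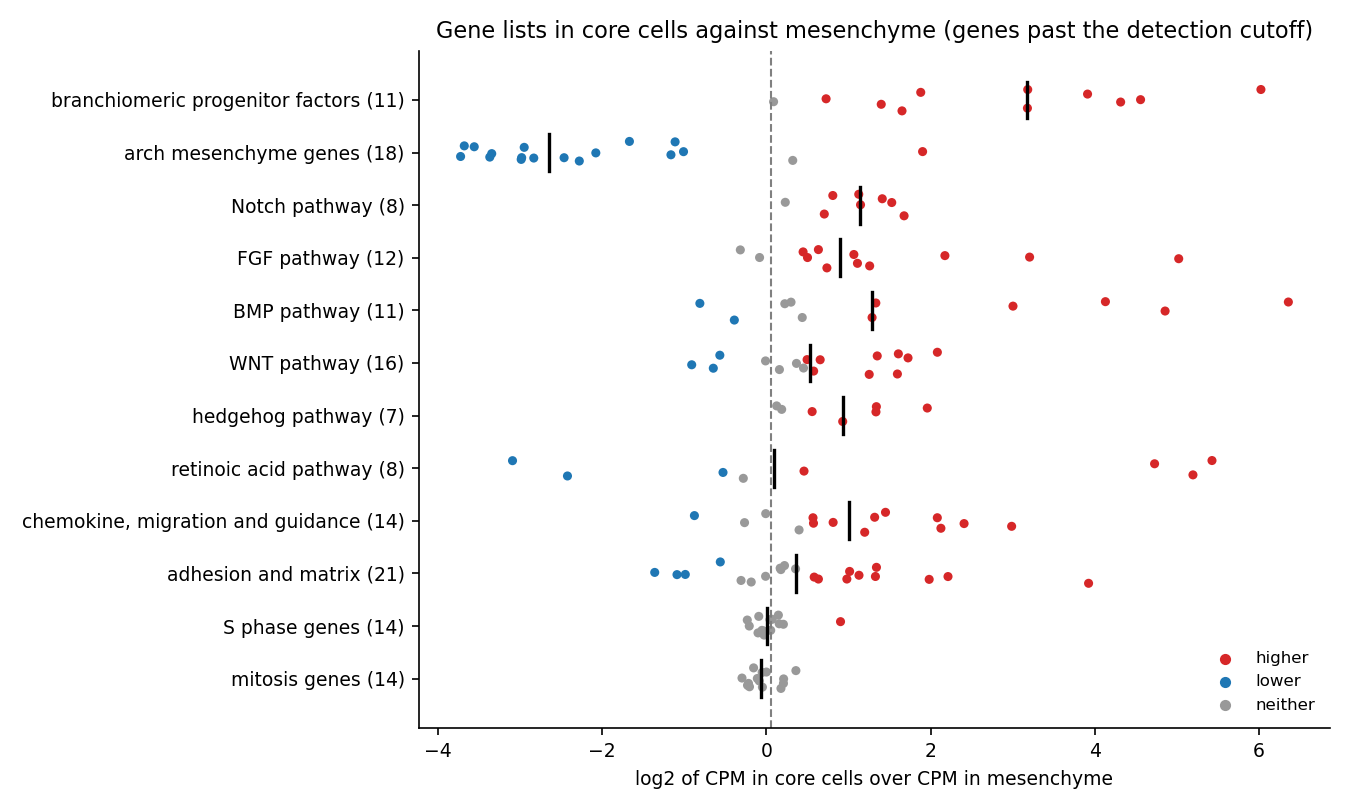
Log2 ratio of CPM in core cells to CPM in mesenchyme for each gene past the detection cutoff in 12 lists, with the number of genes in brackets, a black bar at each list's median and a dashed line at the median of all 7523 genes (0.06); vertical scatter within a list has no meaning. Progenitor factors (median 3.18) and arch mesenchyme genes (median -2.65) lie on opposite sides, S phase and mitosis genes lie around 0, and retinoic acid genes spread to both sides.

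Core cells varied among themselves in vascular genes. Of 17 endothelial genes, 6 passed the cutoff, and Kdr (41.0 against 3.76 CPM) and Ramp2 (43.7 against 10.7 CPM) were higher, while Fli1 (13.6 against 46.2 CPM) and Plvap (6.65 against 13.6 CPM) were lower. Etv2, the ETS factor that starts the endothelial and blood programme (ENSMUSG00000006311, chr7:30633616-30635852), stood at 82.9 CPM (interval 77.1 to 89.0) against 20.6 CPM. It was nevertheless detected in a smaller share of core cells (14.6%) than of mesenchyme cells (18.8%). Its share of core cells was below the 15% that the size rule asks of the higher group, so it was not counted. Cells with Etv2 had a median of 3 UMIs in the core and 1 in mesenchyme, and the largest values were 67 and 27 UMIs.

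A small set of core cells held most of these UMIs. Cells with at least 5 UMIs of Etv2 and Kdr together, a cutoff chosen after the values were seen, numbered 51 (7.69% of core cells), and 697 of the 760 Etv2 UMIs and 268 of the 376 Kdr UMIs were theirs. Vascular genes that did not choose them were also high there. Lmo2, a cofactor of blood and endothelial precursors, stood at 222 CPM (192 to 256) against 42.8 CPM in the other 612 core cells, Tal1, its partner (chosen after its values were seen), at 49.4 against 0.721 CPM, and Hhex at 157 against 6.37 CPM. For these 3 genes the endothelial cells gave 180, 51.9 and 96.0 CPM. Genes of established endothelium were lower than in endothelial cells, with Flt1 at 49.4 CPM against 382 CPM, Cldn5 at 107 against 466 CPM and Emcn at 91.7 against 511 CPM. Pecam1 gave 2 UMIs in the 51 cells (2.35 CPM, against 141 CPM in endothelial cells), and Cdh5 was 0 by the rule.

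Being core cells, the 51 cells were chosen for Tbx1, Msc and Tcf21, whose levels (296, 36.4 and 92.8 CPM) are a description only. Of the factors that the rule did not use, Ebf1 (175 against 182 CPM in the other core cells) had overlapping intervals in both sets. Lhx2 showed the widest gap, at 14.1 CPM (7.29 to 24.6) against 111 CPM (104 to 118), and Myf5 gave 1 UMI in the 51 cells. Their median depth was 16162 UMIs, and 2 of the 51 were called doublets. Without them 1161 genes were higher and 535 lower than in mesenchyme.

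**Figure D5:**
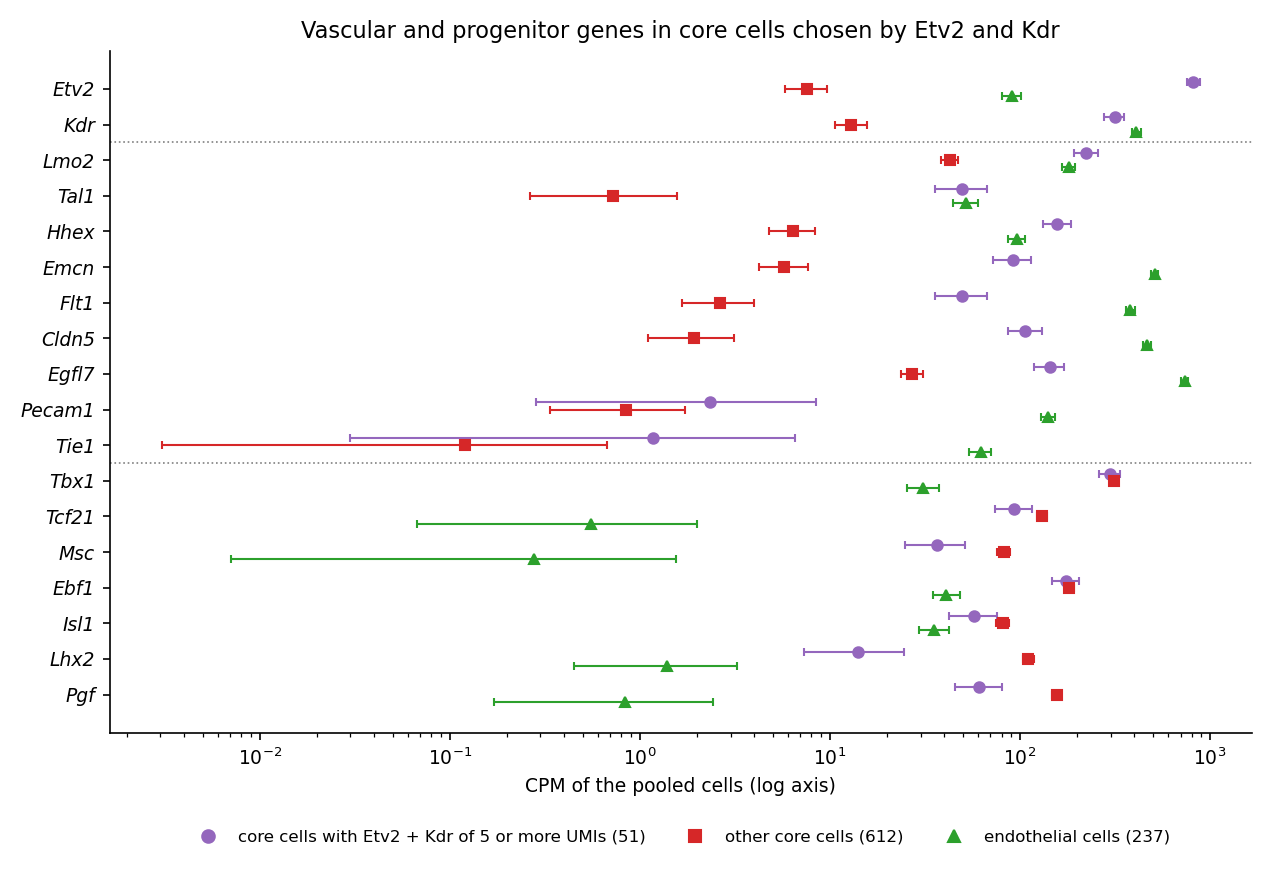
CPM of pooled cells on a log axis with exact 95% Poisson intervals for the 51 core cells with at least 5 UMIs of Etv2 and Kdr (Etv2 and Kdr chose them, and Tbx1, Tcf21 and Msc chose all core cells), the other 612 core cells and 237 endothelial cells. Lmo2, Tal1 and Hhex in the 51 cells lie near or above the endothelial values, Pecam1 and Tie1 lie far below them, and Ebf1 lies at the level of the other core cells.

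The 68 core cells with Tbx1 alone were set against the 307 core cells with both Msc and Tcf21. By the size rule 714 of 7722 genes were higher (9.25%) and 755 lower (9.78%), and at a ratio of 2, 71 were higher (0.919%) and 56 lower (0.725%). Of 11 progenitor factors past the cutoff, 5 were lower and 2 higher in the cells with Tbx1 alone. Lhx2 stood at 34.3 CPM (23.8 to 47.9) against 116 CPM (106 to 127) and Isl1 at 40.4 against 74.4 CPM, with Eya1 and Eya4 lower as well. Higher were Ebf3 (33.3 against 23.8 CPM) and Six2 (23.2 against 13.8 CPM), both with overlapping intervals. The cardiac factor Nkx2-5 was lower (3.03 against 18.2 CPM). Ebf1 (158 against 197 CPM) and Ebf2 (109 against 96.7 CPM) did not meet the rule. All 7 endothelial genes past the cutoff were higher, among them Etv2 (166 against 45.5 CPM), Kdr (88.8 against 28.9 CPM) and Emcn (48.4 against 9.32 CPM). Fli1 (27.9% against 9.77% of cells), Emcn and Plvap were among those that passed through the cells with Tbx1 alone only. These could only be counted as higher. Of 8 arch mesenchyme genes 6 were higher, among them Sox9 (80.7 against 24.9 CPM) and Pdgfra (18.2 against 3.26 CPM), while Msx1 was lower. Pdgfra too passed through the cells with Tbx1 alone only. Of the 68 cells, 12 were among the 51 cells with high Etv2 and Kdr, as were 16 of the 307. Of the endoderm genes, Hhex alone passed the cutoff (59.5 against 7.93 CPM). It passed through the cells with Tbx1 alone only (16.2% against 7.82% of cells), so it could only be counted as higher. Pax1 and Foxa2 gave 0 and 1 UMI in the 68 cells. The gene with the largest ratio was Lum, a matrix proteoglycan gene, at 66.6 against 1.17 CPM and in 20.6% against 1.63% of cells. Median depths were 14446.5 and 12865 UMIs, median rule sums were 4 and 8, and 52.9% and 39.1% of the cells met the mesenchyme threshold. The part of these in the differences was not tested.

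Embryonic globin genes were also higher in the cells with Tbx1 alone, with Hba-x at 739 against 69.9 CPM, but a UMI was found in 54.4% and 50.2% of the cells. Only 2 core cells held 100 or more globin UMIs, and these carried 1906 of the 3345 globin UMIs of all core cells. Of these, 1 had Tbx1 alone and both had Isl1.

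Core cells with Myf5 were set against those without it. For 59 against 604 cells, 656 of 7650 genes were higher (8.58%) and 619 lower (8.09%), and at a ratio of 2 there were 6 (0.0784%) and 21 (0.275%). The groups had median depths of 12370 and 12936.5 UMIs, 22.0% and 43.5% of their cells met the mesenchyme threshold, and 0 and 24 were called doublets, and the part of these in the differences was not tested. Lhx2 was higher with Myf5 (169 CPM, interval 142 to 201, against 95.4 CPM, 88.9 to 102). The WNT effector Lef1 (117 against 75.4 CPM) and Boc (25.5 against 11.8 CPM), a cell surface protein that promotes myogenesis, were also higher. Cdon, the partner of Boc, was lower (14.0 against 22.7 CPM), with overlapping intervals. Of 11 progenitor factors Lhx2 alone was higher, and Ebf3 (19.1 against 27.2 CPM) and Eya4 (15.3 against 23.9 CPM) were lower. For Ebf3 and Eya4 the intervals of the groups overlapped. Of 17 WNT genes 3 were higher and 4 lower, and of 20 adhesion and matrix genes 1 was higher and 9 lower. Ebf1 (167 against 183 CPM) and Cdkn1c (542 against 523 CPM) did not meet the rule. Also lower with Myf5 were Etv2 (19.1 against 88.9 CPM), Kdr (14.0 against 43.5 CPM) and the collagen gene Col3a1 (7.64 against 39.8 CPM). At this depth most of the 59 cells had a lone Myf5 UMI (49 cells), so cells without one cannot be told apart from cells in which Myf5 was missed.

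An Isl1 UMI was found in 330 core cells and none in 333. Thinned to 6000 UMIs, 34.2% of core cells held one, so cells without Isl1 and cells in which it was missed cannot be told apart. Of 7491 genes 227 were higher with Isl1 (3.03%) and 96 lower (1.28%), and 6 and 1 at a ratio of 2 (0.0801% and 0.0133%). The 3 genes with the largest ratios were the globin genes Hba-x, Hbb-y and Hbb-bh1, and both cells with 100 or more globin UMIs had Isl1. With thinned cells 163 of 5203 genes were lower. Also higher with Isl1 were Tlx1 (226 against 101 CPM), Nkx2-5 (23.8 against 12.1 CPM), Nkx2-3 (67.5 against 37.1 CPM), Msx1 (44.2 against 19.1 CPM), the TALE homeobox gene Meis1 (26.6 against 8.79 CPM), Tbx3 (22.7 against 10.8 CPM), the growth factor gene Tgfb2 (57.4 against 28.6 CPM) and the netrin receptor gene Unc5c (63.8 against 32.1 CPM). Lower were Uncx (5.84 against 15.6 CPM), Col3a1 (21.4 against 53.0 CPM), Postn (16.4 against 33.9 CPM), Irx3 (45.0 against 74.3 CPM) and Kdr (30.3 against 51.9 CPM). Lhx2 (97.6 against 106 CPM) and Myf5 (8.22 against 7.03 CPM) had overlapping intervals.

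Detection of the factors in the same cell was also counted in the 655 core cells with at least 6000 UMIs, thinned to that number. Isl1 and Lhx2 were detected together in 83 cells (12.7%), against 13.1% from the product of their shares, and Lhx2 and Ebf2 in 98 cells (14.96%) against 15.6%. The ratios of 0.967 (0.780 to 1.18) and 0.961 (0.791 to 1.15) had intervals that included 1. Other pairs had ratios above 1, the largest for Isl1 and Eya1 at 1.25 (0.951 to 1.61). All pairs counted of factors other than Myf5 and the rule genes had intervals that included 1. Pairs with Tbx1, Msc or Tcf21 are not given, since the rule used their UMIs, and pairs of Myf5 with the other factors rested on at most 11 cells.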

How the data were processed

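The authors deposited unnormalised UMI counts per gene and cell from 10x 3′ libraries aligned to mm10 (GRCm38). The submitters' notes name Cell Ranger 2.0.0, and the file headers name 3.1.0 (E12.0) and 6.1.2 (E9.5). No cell annotation was used. Cells were chosen by marker UMIs, and UMIs were summed over cells and given as CPM, per 1000000 UMIs. Ratios were called by size (1.3-fold with 5 CPM added, a UMI in at least 15% of the higher group). Intervals were exact (Poisson, Clopper-Pearson). A gene at 0 was given an upper limit of 3 counts. Cells were thinned to 6000 UMIs to compare shares. Doublets were called with Scrublet (scanpy 1.11.5, seed 1) and kept. Named genes were those of the fixed lists and the 15 with the largest ratio in each direction, and genes picked otherwise are said to be so. The members and lists were chosen with earlier results of these data known. Calculations used Python 3.11.15, numpy 2.4.6, scipy 1.17.1 and pandas 2.3.3. Calls of core cells against mesenchyme were tested on simulated counts with changes of 2-fold. Smaller changes and the splits within the core cells were not simulated. Positions are from GENCODE on GRCm38. Some genes of the lists are counted but not reported here by name.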

Additional observations from a re-analysis of the deposited data

How the results depend on the processing

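No paired analysis was possible because each stage had 1 library, and for the same reason no replicate could be left out. At a ratio of 2, 315 genes were higher and 91 lower than in mesenchyme, 6 and 21 with Myf5, 71 and 56 with Tbx1 alone, and 6 and 1 with Isl1. With thinned cells fewer genes passed the cutoff, and 660 of 5142 were higher than in mesenchyme and 163 of 5203 lower with Isl1. Without called doublets several mesenchyme genes were lower still, with log2 ratios of -4.31 for Dlx5, -4.17 for Dlx2 and -3.99 for Tfap2b. Against all other kept cells 625 were higher. The core held 373 cells without those holding epithelial, endodermal or Pecam1 UMIs and 387 without those meeting the mesenchyme rule. Of the ratios of single genes recomputed, 523 moved by less than their counting interval and 173 moved by more, and none of a gene that met the size rule changed direction. Genes that did not meet it and changed sign under at least 1 alternative included Ebf3, Eya2, Dlx4, Alx4 and Gsc. Eya2 had a log2 ratio of 3.21 against mesenchyme and -0.01 against all other kept cells. Of 58 genes, 48 moved by more against all other kept cells, 30 without core cells meeting the mesenchyme rule, 1 without the cells high in Etv2 and Kdr, and 0 at the 5% mitochondrial limit. The cause was not tested. Without called doublets 1162 genes were higher and 539 lower, and against mesenchyme without Sox10, an alternative chosen after seeing the data, 1144 and 476. Myf5 and Myod1 rested on few UMIs, and the part of depth in this was not tested. With thinned cells the log2 ratio of Myf5 was 5.16 in place of 5.20.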

Other observations

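Imprinted genes, a list chosen after the values were seen, were often higher in core cells than in mesenchyme. Of 20 past the detection cutoff, of 23 listed, 13 were higher and 1 was lower, where 15% and 6.71% of all genes tested were. The median log2 ratio was 1.11, against 0.06 for all genes tested. Igf2, Plagl1, Zim1 and Mirg passed the cutoff through core cells only, so they could only be counted as higher. Nnat stood at 1350 CPM in core cells, 174 CPM in mesenchyme, 66.6 CPM in endothelial and 179 CPM in epithelial cells. H19, a long noncoding RNA, stood at 1812 CPM in core cells and 267 CPM in mesenchyme, but at 2029 CPM in endothelial and 2049 CPM in epithelial cells. Meg3 (330 against 94.8 CPM) stood at 867 CPM in epithelial cells, and Gnas (1280 against 720 CPM) at 1393 CPM in endothelial cells. Mest was lower than in mesenchyme, at 404 against 859 CPM. No explanation was tested.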
